A study of Mus musculus with 16 samples.

Results

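The collapsin response mediator proteins (CRMPs) are encoded by 5 genes, Crmp1, Dpysl2, Dpysl3, Dpysl4 and Dpysl5, which were read here by 7 of 55681 array probes. The probes were chosen by their RefSeq accession: 1 each for Crmp1, Dpysl2 and Dpysl5, and 2 each for Dpysl3 and Dpysl4. The family was chosen because Dpysl3 was lower with Kir2.1 at postnatal day 6 (P6), so that difference and the age differences of Dpysl3 are given as a description, without a test. All 7 probes passed the filter on dim signal (well above background on 4 or more arrays out of 16) and entered the fit of 24010 probes.

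RNA came from mitral cells, the projection neurons that carry odour signals out of the olfactory bulb, taken from ICR mice. Electroporation in utero at embryonic day 12 had introduced pCAG-EYFP alone (control) or pCAG-EYFP together with pCAG-Kir2.1, so every cell measured carried the fluorescent protein. CAG is a ubiquitous promoter, and Kir2.1 is an inward rectifying potassium channel that dampens neuronal excitability. Groups were P3 control, P3 Kir2.1, P6 control and P6 Kir2.1, each with 4 pools of 10 hand-picked cells. Each pool had its own array. Per the labels, the material of each pool was amplified with 30 PCR cycles, so levels are those after amplification. Pools are biological replicates per the labels, which give no number of animals, so p-values measure the spread between pools, part of which may be technical. Within a pool, fewer cells with a transcript and less transcript per cell cannot be told apart. All P3 arrays shared 1 slide and scan and all P6 arrays another, so the age of the mice and the slide cannot be told apart. Control arrays occupied row 1 and Kir2.1 arrays row 2 of their slide, so treatment and row cannot be told apart either.

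CRMPs are cytosolic phosphoproteins of developing neurons that bind tubulin and other cytoskeletal proteins and help to set axon growth and guidance. They relay signals of class 3 semaphorins, secreted guidance cues read by neuropilin and plexin receptors, and kinases such as Cdk5 and GSK3 change their binding to the cytoskeleton by phosphorylation. They resemble dihydropyrimidinase, a liver enzyme of pyrimidine breakdown, but lack that activity. In the olfactory bulb they are known mainly from growing axons and from young neurons, and mitral cells extend and prune dendrites during the first postnatal days.

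Markers of the labelled cell type were read first. Cdhr1, Tbx21 and Tbr1, which mark mitral and tufted cells, were well above background on all 4 arrays of every group. Markers of other cell types, among them Slc32a1, Aqp4, C1qb, Olig1, Gng13 and Pecam1, met the same call. The call therefore does not tell cell types apart. An array had 34.3% to 41.1% of its probes well above background, no gene spot was saturated, and no array correlated with another above 0.874. A level below is the log2 processed signal of a probe relative to the 75th percentile of its array, taken over 12103 probes bright on all 16 arrays, so that 0 is that percentile. Levels of different probes are not set against each other, since probes differ in their brightness. Group values are means ± SD over 4 pools, differences are on the log2 scale, and SEs come from limma.

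Stretches before a transcription start are shown for 2 of the 5 genes, Crmp1 and Dpysl5, with 3 windows in all. Windows of the other members, where the reference held any, are not shown. Crmp1 and Dpysl5 had their highest group mean in P3 control and their lowest in P6 control, as Dpysl2 did. That order did not choose the windows. The windows come from RefSeq on GRCm38.p6, hold the 250 bases before a start, and lie on the plus strand of chromosome 5, at chr5:37241808-37242057 and chr5:37245514-37245763 for the starts of Crmp1 and at chr5:30711314-30711563 for Dpysl5. Capitals mark matches to the GC box, GGGCGG, or to the cAMP response element half-site, TGACG, on either strand. The motifs were searched as letters, overlapping matches were allowed, and a match is a description, not a binding site.
Crmp1, window 1: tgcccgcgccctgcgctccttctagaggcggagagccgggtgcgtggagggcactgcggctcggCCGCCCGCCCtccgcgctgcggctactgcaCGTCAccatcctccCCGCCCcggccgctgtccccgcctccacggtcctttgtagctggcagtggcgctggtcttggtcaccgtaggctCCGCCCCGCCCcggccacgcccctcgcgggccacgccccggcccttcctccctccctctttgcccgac
Crmp1, window 2: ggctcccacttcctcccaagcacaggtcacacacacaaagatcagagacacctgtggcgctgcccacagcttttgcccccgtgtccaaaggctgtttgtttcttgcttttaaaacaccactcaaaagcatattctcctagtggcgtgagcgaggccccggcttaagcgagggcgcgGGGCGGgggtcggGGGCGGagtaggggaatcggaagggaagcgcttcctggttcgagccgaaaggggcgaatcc
Dpysl5: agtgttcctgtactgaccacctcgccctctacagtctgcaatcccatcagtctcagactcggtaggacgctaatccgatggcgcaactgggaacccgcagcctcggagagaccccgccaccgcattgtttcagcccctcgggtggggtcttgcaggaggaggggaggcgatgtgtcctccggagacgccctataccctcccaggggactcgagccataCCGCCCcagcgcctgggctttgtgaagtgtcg

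Window 1 of Crmp1 held 5 GC boxes and 1 cAMP response element half-site, with 75.6% G and C. Window 2 of Crmp1 held 2 GC boxes and no half-site, with 59.6% G and C, and the Dpysl5 window held 1 GC box and no half-site, with 62.8%. Over 32851 windows of this length, 32.7% held a GC box and 17.8% the half-site, and the median G and C content was 52.4%. Which Crmp1 start the cells used was not measured.

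Dpysl3 (CRMP4), the family member that bundles actin filaments as well as binding tubulin, was 2.36-fold lower in Kir2.1 than in control cells at P6. Its bright probe, A_55_P2042487, read 3.46, 3.50, 3.74 and 3.71 in the P6 control pools 1 to 4. In the P6 Kir2.1 pools it read 2.29, 2.47, 2.05 and 2.64. Every Kir2.1 pool lay below every control pool, and the groups were separated by more than the range of either. The means were 3.60 ± 0.14 and 2.36 ± 0.25 (n = 4 each), a difference of -1.24 (SE 0.20).

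At P3 the same probe read 3.31, 3.16, 3.26 and 3.37 in control pools and 2.87, 3.27, 3.25 and 3.03 in Kir2.1 pools. The groups overlapped, with means of 3.28 ± 0.09 and 3.1 ± 0.19. In control cells the level was 0.33 higher at P6 than at P3 (SE 0.20), and in Kir2.1 cells it differed by -0.74 (SE 0.20), with no overlap between ages in either. The order of its group means was therefore P6 control, P3 control, P3 Kir2.1 and P6 Kir2.1, and only the pair of P3 groups overlapped among neighbours in it. The comparison of treatments at P6 and that of ages in control cells share the P6 control pools. Whether the age difference itself differed between treatments was not tested.

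The second Dpysl3 probe, A_55_P2042486, is assigned to another RefSeq transcript and was dim. It read -5.18, -4.47, -6.91 and -3.92 in P6 control pools, where all 4 arrays were well above background. In P6 Kir2.1 pools it read -8.17, -4.09, -8.56 and -8.20, and only pool 2, at -4.09, was well above background. The difference was -2.13 (SE 1.15), in the same direction as that of the bright probe, but the groups overlapped. At P3 it read -6.33, -7.88, -5.55 and -4.14 in control pools and -8.21, -5.81, -4.81 and -4.23 in Kir2.1 pools, with 3 of 4 arrays well above background in each. Across the 16 pools the Dpysl3 probes had a Pearson r of 0.531 and a Spearman correlation of 0.474, values that share the arrays and their scaling.

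**Figure D1:**
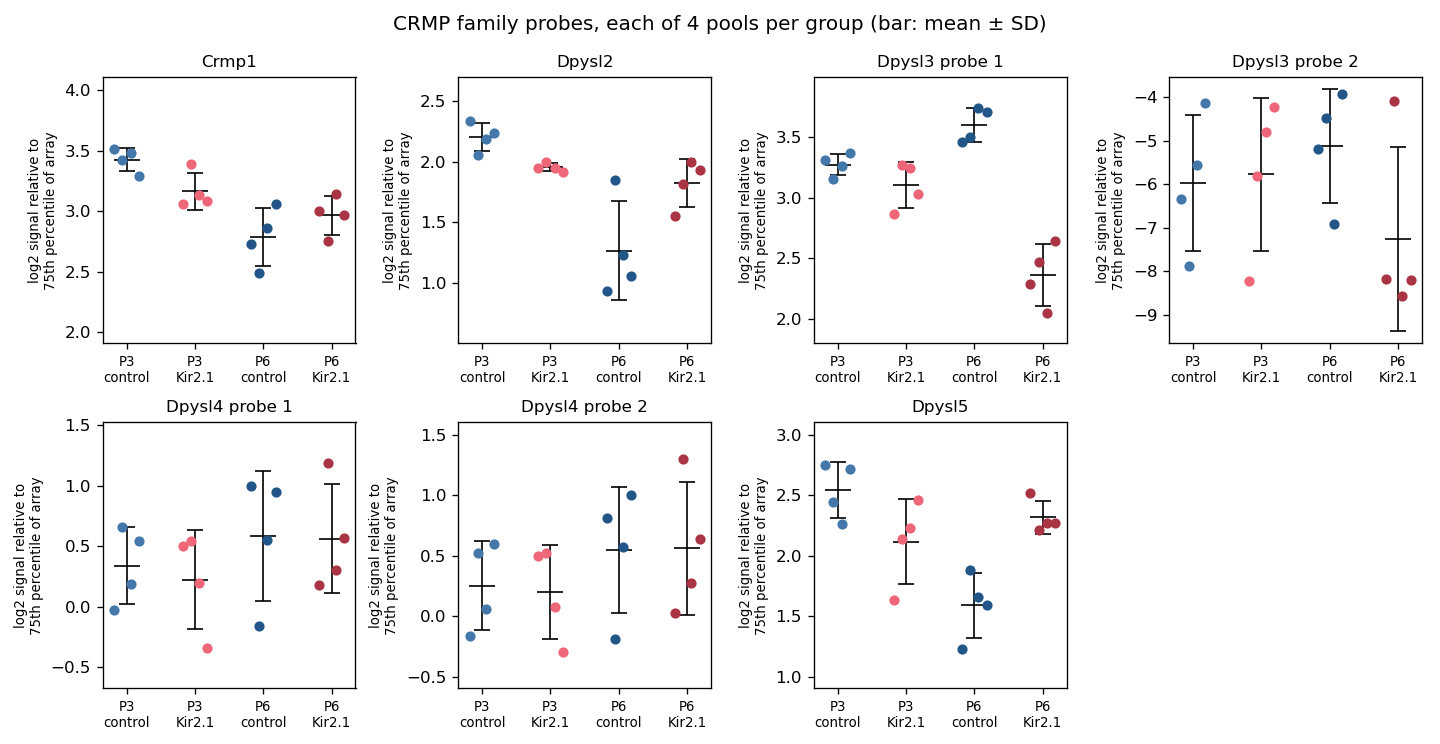
Level of each CRMP probe (y axis, log2 signal relative to the 75th percentile of the array) in P3 control, P3 Kir2.1, P6 control and P6 Kir2.1 pools (x axis); each point is 1 pool and each bar the mean ± SD of 4 pools. P6 Kir2.1 pools of Dpysl3 probe 1 lie between 2.05 and 2.64 and P6 control pools between 3.46 and 3.74, while those of Dpysl5 lie in the opposite order.

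No paralog probe differed by as much as the bright Dpysl3 probe at P6, and those of Dpysl5 and Dpysl2 had higher means with Kir2.1. Dpysl5 (CRMP5), an inhibitor of neurite outgrowth that can pair with other CRMPs, was 1.66-fold higher with Kir2.1. It read 1.23, 1.88, 1.66 and 1.59 in P6 control pools and 2.52, 2.21, 2.27 and 2.27 in P6 Kir2.1 pools. All Kir2.1 pools lay above all control pools, at 2.32 ± 0.14 against 1.59 ± 0.27, a difference of 0.73 (SE 0.24). Dpysl2 (CRMP2), the most studied member, which carries tubulin dimers to growing microtubules, was 1.47-fold higher. It read 0.93, 1.85, 1.23 and 1.06 in control pools and 1.55, 1.82, 2.00 and 1.93 in Kir2.1 pools. The groups overlapped through control pool 2, which stood above the 3 other control pools. The difference was 0.55 (SE 0.23).

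Crmp1, known as a mediator of semaphorin and reelin signalling in cortical neurons, read 2.73, 2.49, 2.86 and 3.06 in P6 control pools. In P6 Kir2.1 pools it read 3.00, 2.75, 3.14 and 2.97, and the groups overlapped with a difference of 0.18 (SE 0.20). Dpysl4 (CRMP3), the member tied to dendrite growth in hippocampal neurons, read 1.00, -0.16, 0.55 and 0.95 in control and 0.18, 1.19, 0.30 and 0.57 in Kir2.1 pools with its first probe. No Kir2.1 pool lay below all control pools, and the groups overlapped. The difference was -0.03 (SE 0.33) with the first probe and 0.02 (SE 0.35) with the second, and its sign depended on the scaling of the arrays. Of the 7 probes, 1 was past the threshold of an adjusted p of 0.05 at P6, the bright Dpysl3 probe, where 1.61% of all probes were, and 2 did not overlap between groups, where 8.75% of all probes did not. Since the P6 difference chose the family, nothing is read from these counts.

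Marker lists of other cell types are given beside this comparison. A summed level is the log2 of the summed unlogged levels of a list's tested genes. The brightest probes of a list therefore weigh most in it. The 15 tested genes of the list for olfactory bulb interneurons, inhibitory neurons that surround mitral cells, had mean levels of -3.20 to -1.20 in P6 control pools and -5.99 to -3.49 in P6 Kir2.1 pools, which did not overlap. Their summed level was 2.52 to 3.64 in P6 control, 1.02 to 2.05 in P6 Kir2.1, 1.23 to 1.54 in P3 control and 1.02 to 1.74 in P3 Kir2.1 pools. Of the 15, 14 were lower with Kir2.1 at P6 in their means, where 53.7% of named genes were. An unadjusted p under 0.05 by limma was found for 9 of the 15 and for 17% of named genes. Past the threshold was 1, Penk, where 1.66% of named genes were. Penk, which encodes proenkephalin, was well above background on 3 P6 control arrays, on 1 P3 control array and on no Kir2.1 array, so it passed the filter mainly through the group where it was high. Set against the lowest signal well above background on each P6 Kir2.1 array, its P6 control mean was 28.4-fold higher. That mean includes a pool not well above background, so the fold is not a strict bound. Penk was lower with Kir2.1 at P6 past the threshold (adjusted p = 0.0284 by limma). That call ended without P6 control pool 1, 2 or 4 or P6 Kir2.1 pool 2, 3 or 4 (adjusted p up to 0.0651). Gad1 and Gad2, which encode the enzymes of GABA synthesis, were well above background on 4 of 4 P6 control arrays and on 3 of 4 P6 Kir2.1 arrays. In P3 control each was above it on 1 of 4 arrays, and in P3 Kir2.1 Gad1 on 3 and Gad2 on 4. Slc32a1, the vesicular GABA transporter, was above it with at least 1 of its probes on all 4 arrays of every group. In control cells 4 of the 15 genes rose from P3 to P6 by limma, where 1.2% of named genes did, namely Meis2, Gad2, Synpr and Gad1. Without 1 pool the call of Meis2 held in all 16 fits, that of Gad2 ended without P3 control pool 1, 3 or 4, that of Synpr without P3 control pool 3 or 4, and that of Gad1 in 12 fits (adjusted p up to 0.123), all but those without P3 Kir2.1 pool 4, P6 control pool 3 or P6 Kir2.1 pool 1 or 3. The part of these cells' RNA in the CRMP values was not tested.

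Glial markers are given in the same way. All 8 tested astrocyte and radial glia genes were lower with Kir2.1 at P6 in their means, where 53.7% of named genes were. None passed the threshold with limma, where 1.66% of named genes did. None had an unadjusted p under 0.05, where 17% of named genes did. Their mean levels were -4.40 to -1.82 in control and -5.68 to -3.81 in Kir2.1 pools. Their summed level was 3.55 to 3.83 and 1.99 to 3.95. Gfap, which marks mature astrocytes, was well above background on 3 P6 control and 2 P6 Kir2.1 arrays, on 2 P3 Kir2.1 arrays and on no P3 control array. Aqp4, a water channel of astrocytes, was above it on all 4 arrays of every group, and Slc1a3, a glutamate transporter, on 4 P6 control, 3 P6 Kir2.1, 3 P3 control and 4 P3 Kir2.1 arrays. The 6 tested microglia genes had mean levels of -5.37 to -2.31 and -6.66 to -5.15 and summed levels of -0.70 to 1.20 and -1.36 to 0.40. Of the complement genes that mark microglia, C1qb was above background on all 4 arrays of every group. C1qa was above it on 1 P6 control array and no other, and C1qc on 3 P6 control and 1 P3 control arrays and no Kir2.1 array.

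The vascular and dividing cell lists had overlapping levels in the P6 groups. More of their genes were higher than lower with Kir2.1 in their means (5 of 8 and 3 of 3). Over all named genes, 53.7% were lower. The 8 tested vascular and blood genes had mean levels of -4.90, -6.42, -5.85 and -6.21 in P6 control pools 1 to 4 and -2.47, -1.80, -6.20 and -7.29 in P6 Kir2.1 pools, so that Kir2.1 pools 1 and 2 lay above all control pools. The summed levels were -0.04 to 1.18 and -0.39 to 2.60. Pecam1 and Kdr, which mark endothelium, were above background on every array, and Cldn5 on 1 P6 control and 3 P6 Kir2.1 arrays. Esam, an endothelial adhesion gene of that list, was above background on 3 P6 Kir2.1 arrays and no P6 control array with its tested probe. At P3 it was above background on 1 Kir2.1 array and no control array. It passed the filter mainly through the group where it was high, and it did not pass the threshold (adjusted p = 0.0721 by limma). The 3 tested genes of dividing cells had mean levels of -7.68 to -6.18 in P6 control and -6.74 to -2.81 in P6 Kir2.1 pools and summed levels of -3.83 to -1.32 and -3.52 to -0.60. Mki67 was above background on 1 P6 control and 3 P6 Kir2.1 arrays, Top2a on 0 and 1, and Ccnb1 on 1 and 1. Mcm2, a replication licensing gene of that list, was above background on 4 P6 Kir2.1 arrays and no P6 control array with its tested probe. Those 4 arrays alone met the filter on dim signal, through the group where Mcm2 was high. It did not pass the threshold either (adjusted p = 0.0601 by limma).

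Lists of 3 further cell types overlapped between the P6 groups. Mean levels of the 9 tested oligodendrocyte lineage genes were -4.66 to -1.74 in control and -4.71 to -3.85 in Kir2.1 pools, with summed levels of 0.68 to 2.91 and 0.31 to 2.59. Olig1 and Sox10 were above background on every array, and Olig2 on 3 P6 control and 1 P6 Kir2.1 arrays. The 6 tested ensheathing cell genes had mean levels of -2.68 to -0.93 and -4.63 to 0.98 and summed levels of 3.34 to 3.90 and 1.56 to 4.92, with Npy above background on 4 P6 control and 3 P6 Kir2.1 arrays and Frzb on 3 and 2. The 5 tested olfactory sensory neuron genes had mean levels of -4.25 to -3.17 and -5.12 to -3.25 and summed levels of -1.04 to 1.08 and -1.26 to 0.07, with Gng13 and Cnga2 above background on every array and Omp on 4 P6 control and 3 P6 Kir2.1 arrays. No gene of these lists, nor of the vascular and dividing cell lists, passed at P6 with limma, where 1.66% of named genes did. An unadjusted p under 0.05 was found for 2 of 9, 0 of 6, 3 of 5, 2 of 8 and 1 of 3. These are in the order oligodendrocyte, ensheathing, sensory, vascular and dividing, where 17% of named genes had such a p. The part of these cell types in the family's values was not tested.

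The 13 tested genes of migrating and immature neurons, cells in which CRMPs are abundant, had summed levels of 6.00 to 6.14 in P3 control, 5.99 to 6.16 in P3 Kir2.1, 5.45 to 5.61 in P6 control and 5.62 to 5.69 in P6 Kir2.1 pools. In control cells 2 of the 13, Stmn1 and Dcx, fell from P3 to P6 by limma, where 1.2% of named genes did. Between ages in Kir2.1 cells 2 of the 13 fell too, where 0.349% of named genes did. These were Igfbpl1 (difference -6.78, adjusted p = 0.0319 by limma) and Stmn1 (-0.84, adjusted p = 0.0494 by limma). Leaving out 1 pool ended that call of Igfbpl1 in 6 of 16 fits and that of Stmn1 in all 16. At P6 1 of the 13, Elavl2, was lower with Kir2.1 past the threshold, where 0.789% of named genes were. In control cells the call of Stmn1 held in all 16 fits without 1 pool. That of Dcx ended without P3 control pool 2, 3 or 4 or P6 control pool 4 (adjusted p up to 0.0724). The P6 call of Elavl2 ended in 10 fits (up to 0.0925). It held without P3 control pool 1 or 2 or P3 Kir2.1 pool 2. So it did without P6 control pool 1 or 3 or P6 Kir2.1 pool 4. Dcx, Sox11 and Sox4 were well above background on every array. The 12 tested mitral cell genes had mean levels of -1.83 to -1.33 in P6 control and -1.39 to -0.49 in P6 Kir2.1 pools. Their summed levels were 3.54 to 4.41 and 4.25 to 4.83. Of these, 9 were higher with Kir2.1 at P6, where 53.7% of named genes were lower. For 5 the unadjusted p by limma was under 0.05, where 17% of named genes had such a p. Reln alone passed the threshold, where 1.66% of named genes did. From P3 to P6, 1 rose past it in control and 3 in Kir2.1 cells, where 1.2% and 0.573% of named genes did. Some such calls ended without 1 pool. How far any of these lists bears on the CRMP levels was not tested.

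**Figure D2:**
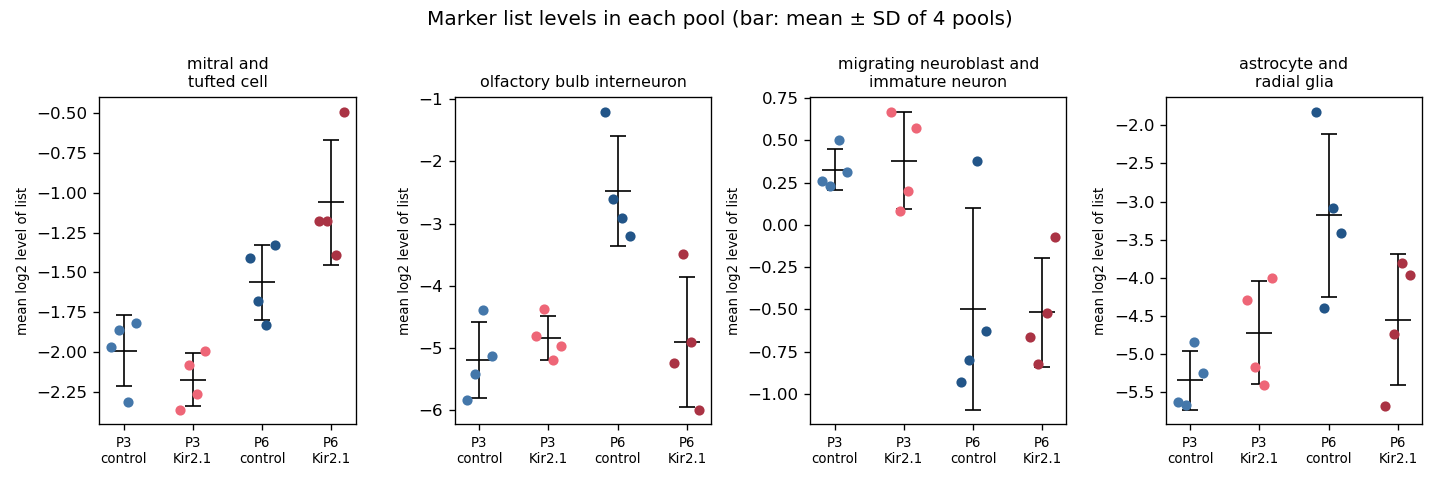
Mean log2 level of 4 cell type marker lists (y axis), those of mitral and tufted cells, interneurons, immature neurons and astrocytes, in every pool of the 4 groups (x axis); points are pools and bars the mean ± SD of 4 pools. Interneuron markers lie at -3.20 to -1.20 in P6 control pools and at -5.99 to -3.49 in P6 Kir2.1 pools.

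Kir2.1 and control cells of P3 were compared to ask whether the family already differed in younger cells. None of the 7 probes passed the threshold with limma, and none had an unadjusted p under 0.05. Over all 24010 probes, 0.0125% passed and 6.48% had an unadjusted p under 0.05. Differences were negative for 6 of the 7 probes, all but the dim Dpysl3 probe, and lay between -0.43 and -0.05 in these. Both Dpysl4 probes are among the 6. Over all named genes 55.6% had a negative difference, and the median was -0.10. For Dpysl3 the bright probe differed by -0.17 (SE 0.20, 95% interval -0.61 to 0.26, adjusted p = 0.937 by limma). The dim probe differed by 0.21 (interval -2.26 to 2.67, adjusted p = 0.991 by limma), a wide interval on a probe near background.

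Among the paralogs at P3, Dpysl5 had the largest difference, -0.43 (SE 0.24, interval -0.94 to 0.08, adjusted p = 0.84 by limma). It read 2.75, 2.44, 2.26 and 2.72 in control pools and 1.63, 2.14, 2.23 and 2.46 in Kir2.1 pools, and the groups overlapped. Dpysl2 read 2.34, 2.06, 2.19 and 2.24 in control and 1.95, 2.00, 1.95 and 1.92 in Kir2.1 pools, so that every Kir2.1 pool lay below every control pool. Its difference was -0.25 (SE 0.23, interval -0.74 to 0.23, adjusted p = 0.924 by limma). It was 1 of 7 probes without overlap, where 6.76% of all probes had none and 2.59% were lower without any. Crmp1 read 3.51, 3.42, 3.48 and 3.29 in control and 3.06, 3.39, 3.13 and 3.08 in Kir2.1 pools, with a difference of -0.26 (interval -0.68 to 0.17, adjusted p = 0.896 by limma). The Dpysl4 probes differed by -0.12 (interval -0.83 to 0.60) and -0.05 (interval -0.80 to 0.69), with adjusted p of 0.981 and 0.992 by limma. Signs therefore differed between ages for Dpysl2, Dpysl5 and Crmp1, negative at P3 and positive at P6, and this difference between ages was not tested.

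The comparison of ages asked how the family develops in control cells. Dpysl2 fell 1.92-fold from P3 to P6, from 2.21 ± 0.11 to 1.27 ± 0.41 (difference -0.94, SE 0.23, interval -1.42 to -0.45, adjusted p = 0.0474 by limma). All 4 P6 pools lay below all 4 P3 pools. The call was close to the threshold: it ended under 6 of 11 other settings (adjusted p up to 0.174) and in 15 of 16 fits without 1 pool (up to 0.12), every one but that without P6 control pool 2, where the difference was -1.13. Dpysl5 differed by -0.95 (SE 0.24, interval -1.47 to -0.44), 1.94-fold, from 2.54 ± 0.24 to 1.59 ± 0.27, with no overlap. Its adjusted p was 0.0537 by limma, and it passed under 5 of 11 other settings (as low as 0.0105) and without P3 Kir2.1 pool 1 (0.0497).

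Crmp1 differed by -0.64 between ages in control cells (SE 0.20, interval -1.06 to -0.21, adjusted p = 0.111 by limma), from 3.42 ± 0.10 to 2.79 ± 0.24, again with no overlap. It passed in 1 other setting, with trended and robust variance (adjusted p = 0.0107). Dpysl4 differed by 0.24 and 0.29 with its probes (adjusted p = 0.756 and 0.724 by limma), and its pools overlapped. Of the 5 paralog probes, 1 passed the threshold, where 2.3% of all probes did, and 3 had an unadjusted p under 0.05, where 17.6% of all probes did. Of all 7 probes, 3 were lower at P6 without overlap and 1, the bright Dpysl3 probe, was higher without overlap. Over all probes 12.5% had no overlap, 6.76% lower and 5.71% higher, and among probes bright on every array 16.5%.

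In Kir2.1 cells none of the 5 paralog probes passed the threshold between ages with limma, where 0.833% of all probes did, and none had an unadjusted p under 0.05, where 14.5% of all probes did. Dpysl2 differed by -0.13 (interval -0.61 to 0.36, adjusted p = 0.84 by limma), a sign that turned under 3 settings. Dpysl5 differed by 0.20 (interval -0.31 to 0.71, adjusted p = 0.748 by limma), with 2.11 ± 0.35 at P3 and 2.32 ± 0.14 at P6. Crmp1 differed by -0.20 (interval -0.63 to 0.23, adjusted p = 0.697 by limma), a sign that turned with quantile normalization. Both Dpysl4 probes overlapped, with differences of 0.33 and 0.36 (adjusted p = 0.699 and 0.687 by limma). Of all 7 probes, 1 had no overlap between ages, the bright Dpysl3 probe, against 10.3% of all probes, 7.53% lower. No test was made of whether age differences differed between control and Kir2.1 cells.

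**Figure D3:**
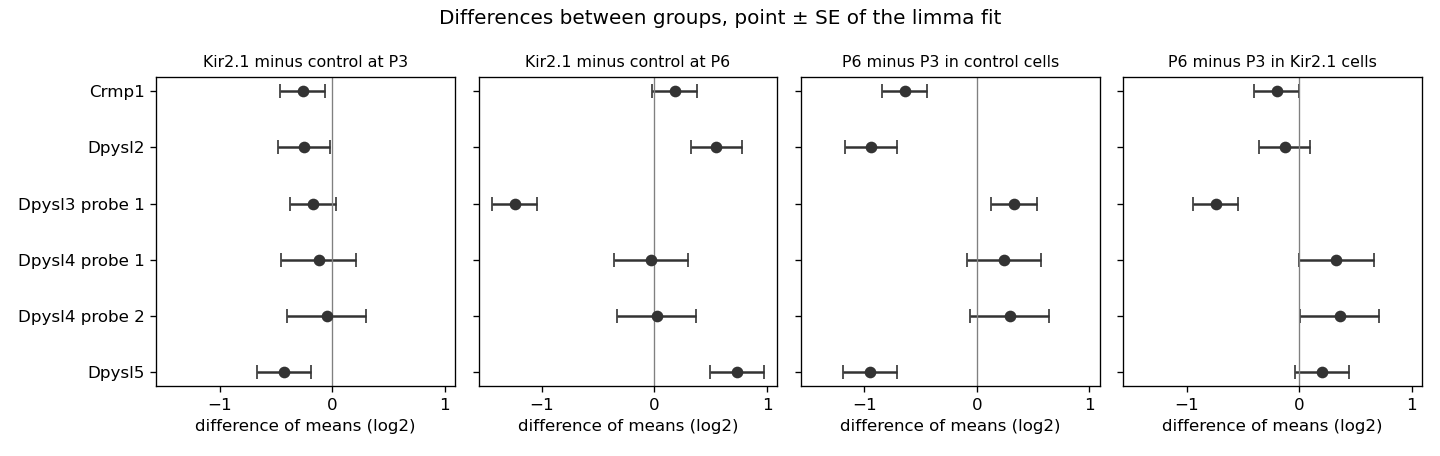
Difference of group means for each CRMP probe except the dim Dpysl3 probe (x axis, log2, with bars for the SE from limma). The 4 comparisons are Kir2.1 minus control at P3 and P6 and P6 minus P3 in control and Kir2.1 cells. At P6 the bright Dpysl3 probe lies at -1.24 and Dpysl5 at 0.73.

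The order of the 4 groups differed within the family. Crmp1 and Dpysl2 were highest in P3 control, followed by P3 Kir2.1, P6 Kir2.1 and P6 control. For Crmp1 all neighbours in that order overlapped. For Dpysl2 only P3 control stood clear of its neighbour. Dpysl5 ran from P3 control through P6 Kir2.1 and P3 Kir2.1 to P6 control, and every neighbouring pair overlapped. All pairs of groups overlapped for Dpysl4, whose group means with the first probe ran from 0.22 ± 0.40 in P3 Kir2.1 to 0.58 ± 0.54 in P6 control. Its probes followed each other over the 16 pools with a Pearson r of 0.979 and a Spearman correlation of 0.976.

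Levels were compared across the 16 pools for the 10 pairs of family members, as a description in which pools share their slide, scaling and group. Dpysl2 and Dpysl5 were most alike, with a Pearson r of 0.783 and a Spearman correlation of 0.626, and r was 0.362 for deviations from group means. Crmp1 and Dpysl2 had r 0.594 and Spearman correlation 0.853, and deviations from group means gave -0.349, so their likeness lay between groups. Crmp1 and Dpysl5 had r 0.575 and Spearman correlation 0.553, and -0.0664 within groups. Dpysl3 had r of 0.0193 to Crmp1, -0.279 to Dpysl2 and -0.368 to Dpysl5 over all pools, values that hold the P6 difference by which the family was chosen. Among the P3 pools alone the same r were 0.67, 0.674 and 0.712, and among the P6 pools -0.44, -0.701 and -0.852. With deviations from group means they were 0.134, -0.0179 and 0.283. Dpysl4 had r between -0.479 and 0.0319 to the other members.

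Over 6455 named genes bright on all 16 arrays, the 5 most like Dpysl3 were Igfbp5, Dot1l, Slc24a3, Cd200 and Nrbp1. Igfbp5, a secreted binding protein of insulin-like growth factors, had a Pearson r of 0.927 and a Spearman correlation of 0.897. Dot1l, the histone H3 lysine methyltransferase, had 0.908 and 0.929, and Slc24a3, a sodium, calcium and potassium exchanger, had 0.886 and 0.926. Cd200, a surface glycoprotein, had 0.837 and 0.80, and Nrbp1, a pseudokinase, had 0.836 and 0.474. Each of the 5 was lower with Kir2.1 at P6, by differences between -2.88 for Dot1l and -1.88 for Igfbp5, which is part of what the ranking read. With deviations from group means r was 0.801 for Dot1l and 0.70 for Nrbp1, but 0.321 for Igfbp5, 0.342 for Slc24a3 and -0.028 for Cd200.

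The surrounding pathway was described by 6 lists of 104 genes, of which 88 named genes were tested. At P3 none of the 88 passed the threshold between Kir2.1 and control with limma, where 0.00831% of named genes did, and 9 had an unadjusted p under 0.05, where 5.97% of named genes did. The median difference was -0.12, against -0.10 over all 12035 named genes. Of the 9, 7 had a lower mean with Kir2.1 and 2 a higher one. Those 2 were Reln, the secreted glycoprotein reelin (2.92, adjusted p = 0.363), and L1cam, a co-receptor for semaphorin 3A (3.1, adjusted p = 0.421). Among the 7 were Pld2, a phospholipase (-5.15, adjusted p = 0.619), Kif5c, a kinesin motor (-0.55, adjusted p = 0.731), Camk2b, a kinase subunit (-0.52, adjusted p = 0.745), and Tubb2b, a beta tubulin (-0.41, adjusted p = 0.745).

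At P6, 2 of 88 pathway genes were higher and 1 lower with Kir2.1 past the threshold, where 1.66% of named genes passed, 0.872% higher and 0.789% lower. An unadjusted p under 0.05 was found for 25 of the 88 and for 17% of named genes. The median difference was -0.24, against -0.09 over all named genes, with 56 of 88 negative, where 53.7% of named genes were. Among 6 tested ligands Reln was higher, with -6.45, -7.60, -9.41 and -9.48 in control pools and -5.43, -3.16, -5.93 and -2.88 in Kir2.1 pools. Only 1 control array was well above background for it, and the groups did not overlap (difference 3.89, SE 0.74, adjusted p = 0.0223 by limma). Reln is also a marker of mitral and tufted cells and stands in that list too.

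None of the 16 tested semaphorin receptors and co-receptors, 23 kinases and phosphatases or 26 binding and transport partners passed at P6 with limma. Of all named genes, 1.66% passed. An unadjusted p under 0.05 was found for 3 of the 16, 7 of the 23 and 7 of the 26. Over all named genes the share was 17%. None of the 4 genes of pyrimidine metabolism, among them Dpys, the gene of dihydropyrimidinase, passed the filter on dim signal, so none was tested. Slc8a3, a sodium and calcium exchanger from the list of partners, had the next lowest p, with a difference of -0.89 (adjusted p = 0.0525 by limma).

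The P6 calls rested on single pools in part. Without P6 control pool 4, 1 pathway gene passed, and without P6 Kir2.1 pool 4, none did. The call of Reln ended without P6 control pool 4 or P6 Kir2.1 pool 2 or 4 (adjusted p up to 0.0599), and under 2 of 11 other settings (up to 0.223).

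With age in control cells, 4 of 88 pathway genes rose and 4 fell, where 2.41% of named genes passed, 1.2% in each direction. An unadjusted p under 0.05 was found for 24 of them and for 17.8% of named genes, and the median difference was 0, against -0.08 over all named genes. The 3 tubulin genes past the threshold, which encode subunits of the microtubules that CRMPs bind, fell together in the list of 26 binding and transport partners. Tuba1a read 5.06, 4.94, 5.10 and 4.93 at P3 and 3.29, 3.99, 3.78 and 3.61 at P6 (difference -1.34, SE 0.20, adjusted p = 0.00447 by limma). Tubb2b read 4.65, 4.46, 4.72 and 4.47 at P3 and 3.24, 3.33, 3.55 and 3.22 at P6 (difference -1.24, SE 0.18, adjusted p = 0.00421 by limma). Tubb5 differed by -0.83 (SE 0.20, adjusted p = 0.0442 by limma). In each, all P6 pools lay below all P3 pools. Tubb2a, the other tested tubulin gene of that list, differed by -0.33 (adjusted p = 0.47 by limma), and its pools overlapped.

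Slc8a3, which stands in the same list, rose from 0.96 ± 0.11 to 2.32 ± 0.26 (difference 1.36, SE 0.21, adjusted p = 0.0051 by limma). Among 23 kinases and phosphatases, Ppp1ca, a catalytic subunit of protein phosphatase 1, fell from 2.64 ± 0.24 to 1.39 ± 0.16 (difference -1.25, adjusted p = 0.0161 by limma). Camk2b, the beta subunit of calcium and calmodulin dependent kinase II, rose from 2.38 ± 0.10 to 3.33 ± 0.36 (difference 0.95, adjusted p = 0.049 by limma). Among 16 receptors and co-receptors, Rtn4r, the receptor of the myelin protein Nogo, rose by 2.51 (adjusted p = 0.0351 by limma) and its partner Lingo1 by 2.43 (adjusted p = 0.0393 by limma), both from dim levels.

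Leaving out 1 pool at a time ended none of the calls of Tuba1a, Tubb2b and Slc8a3 in control cells. It ended that of Ppp1ca only without P3 control pool 3 (adjusted p 0.0565). The call of Rtn4r ended in 6 of 16 such fits, each without 1 of P3 control pools 1 to 3 or P6 control pools 1, 2 and 4 (up to 0.104), and that of Lingo1 in 9 (up to 0.0833), all but those without P3 control pool 2, P3 Kir2.1 pool 1, 2 or 3, P6 control pool 3 or P6 Kir2.1 pool 2 or 3. Tubb5 lost its call in 14 (up to 0.116), all but those without P6 control pool 2 or P6 Kir2.1 pool 3, and Camk2b in 15 (up to 0.129), all but that without P6 control pool 3. Of 11 other settings, 1 each ended the calls of Tuba1a, Tubb2b, Slc8a3 and Ppp1ca (up to 0.0703), 3 that of Rtn4r (up to 0.0998), 5 that of Camk2b (up to 0.157), 6 that of Tubb5 (up to 0.166) and 7 that of Lingo1 (up to 0.132).

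In Kir2.1 cells 1 of 88 pathway genes passed between ages, where 0.922% of named genes did, 0.349% lower, and 23 had an unadjusted p under 0.05, where 14.1% of named genes did. Tubb2b fell from 4.17 ± 0.08 to 3.30 ± 0.10 (difference -0.87, SE 0.18, adjusted p = 0.0443 by limma). That call ended in 15 of 16 fits without 1 pool (up to 0.123), all but the one without P6 control pool 3, and under 6 of 11 other settings (up to 0.19). Tuba1a differed by -0.51 (adjusted p = 0.252 by limma) and Slc8a3 by 0.03 (adjusted p = 0.968 by limma).

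**Figure D4:**
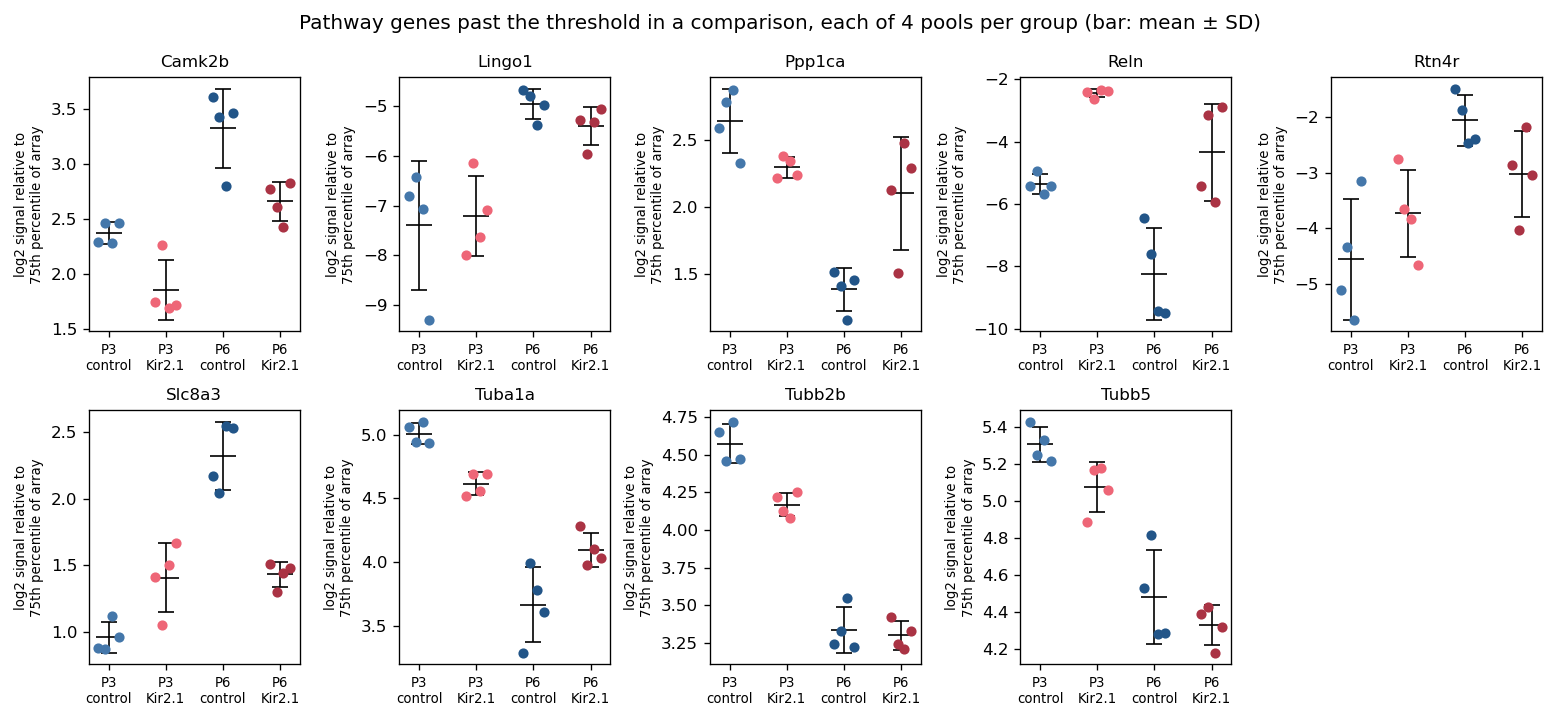
Level (y axis, log2 signal relative to the 75th percentile of the array) of the pathway genes described here that were past the threshold in at least 1 comparison, in every pool of the 4 groups (x axis); points are pools and bars the mean ± SD of 4 pools. Tubb2b lies at 4.46 to 4.72 in P3 control and at 3.22 to 3.55 in P6 control pools.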

How the data were processed

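Cells, pools and groups are those described above. Per the file headers, Agilent Feature Extraction 10.7.3.1 read 1-colour (Cy3) Agilent arrays, and the deposited scanner tables give the processed signal as a background-subtracted intensity. The deposited value table holds a ratio, the same signal over the array's 75th percentile, found by setting it against those tables (median quotient 0.999 to 1.0 per array), and served as an alternative.

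Of 55681 probes, 83 with outlier spots throughout an array were left out. RefSeq accessions were given for 28116 probes, and 26582 received a symbol. Log2 signals were scaled as stated above. Probes well above background on at least 4 of 16 arrays (24010) were fitted together with limma 3.58.1 in R 4.3.3, with 4 group means, 12 residual and 1.64 prior degrees of freedom. Adjusted p is Benjamini-Hochberg over these probes, with a threshold of 0.05, and a gene was read by its brightest tested probe. The number of arrays limits the precision. The fit was tested on simulated data.

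Family members, gene lists and tests were chosen with earlier results of these data known. Genes named were all family probes; pathway genes past the threshold, up to 8, or the 4 with the lowest p; the first 3 genes of each marker list; and the 5 genes most like Dpysl3. Results of 1 pathway list are not reported here, though its genes are within the counts over all 6; they are not named, also where the rule would name them. Penk, Meis2, Synpr, Stmn1, Igfbpl1, Elavl2, Esam, Mcm2, Pld2, Kif5c and Tubb2a were named after their values were seen. So were comparisons of listed genes in which they did not pass. The alternative background correction (normexp) used the median spot signal in place of the mean signal first planned. Same-numbered pools did not deviate together (correlations -0.0278 to 0.0664), so replicate numbers were not treated as pairs. Other alternatives were the scaling, quantile normalization, filters, variance settings, array weights, groups fitted and left-out pools.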

Additional observations from a re-analysis of the deposited data

Results flagged for a closer look

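One pool stood apart from its group. The dim Dpysl3 probe read -4.09 in P6 Kir2.1 pool 2, while the 3 other pools read -8.56 to -8.17, a gap of 0.913 of the group's range, above the 95% critical value of Dixon's test for 4 samples. Chance gives such a gap in about 1 of 20 groups, and 28 groups were examined.

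Some comparisons ran in opposite directions, and none of these differences was tested. The Kir2.1 difference of Dpysl2 was -0.25 at P3 and 0.55 at P6. That of Dpysl5 was -0.43 and 0.73. The age difference of Dpysl5 was -0.95 in control and 0.20 in Kir2.1 cells, and that of the bright Dpysl3 probe was 0.33 and -0.74.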

How the results depend on the processing

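Across 11 other settings and 16 fits without 1 pool, the P6 difference of the bright Dpysl3 probe kept its sign, at -1.33 to -1.02. It was -1.02 under scaling over all gene probes and -1.33 to -1.13 without 1 pool. Since this difference chose the family, nothing is read from its kept sign. Its groups did not overlap, so leaving out 1 pool could not turn it. At P3, 0 family probes passed under any of these settings or fits, and in Kir2.1 cells 0 between ages. With age in control cells, where 1 paralog probe passed, 0 did with scaling over all gene probes, quantile normalization, the value table, no filter and only the 2 groups compared, 2 with normexp, a filter at 8 arrays, 1 probe per gene and array weights, 3 with trended and robust variance, and 0 to 1 without 1 pool. The cause was not tested.

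The dim Dpysl3 probe at P3 turned to -0.03 with normexp and ranged from -0.43 to 1.02 without 1 pool, turning to -0.43, -0.11 and -0.30. The Dpysl4 probes ranged from -0.24 to 0.07 and from -0.19 to 0.11, turning to 0.07 and to 0.03, 0.06 and 0.11. The age difference in Kir2.1 cells turned for Crmp1 with quantile normalization (0.03) and for Dpysl2 with scaling over all gene probes (0.04), quantile normalization (0.01) and the value table (0.03).

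Pathway genes past the threshold numbered 1 at P3 with only the 2 groups compared. At P6 they were 6 with trended and robust variance, 1 with array weights, 0 with only the 2 groups and 0 to 4 without 1 pool. With age in control cells they were 4 without a filter, 0 with only the 2 groups and 3 to 9 without 1 pool. In Kir2.1 cells they were 0 with scaling over all gene probes, quantile normalization, the value table, no filter and only the 2 groups, 2 with normexp, 5 with trended and robust variance and 0 to 2 without 1 pool.

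Over all probes, 3 passed at P3, against 10 with scaling over all gene probes and with the value table, 11 with normexp, 13 with the filter at 8 arrays and with trended and robust variance, 38 with array weights, 31 with only the 2 groups and 0 to 15 without 1 pool. At P6 386 passed, against 765 with normexp, 217 without a filter, 725 with trended and robust variance, 136 with array weights, 22 with only the 2 groups and 190 to 454 without 1 pool. With age, 552 passed in control cells, against 327 without a filter, 974 with trended and robust variance, 185 with only the 2 groups and 220 to 599 without 1 pool, and 200 in Kir2.1 cells, against 126 with quantile normalization, 29 with only the 2 groups and 31 to 180 without 1 pool. At P6, 197 probes were higher and 189 lower, against 314 and 117 with scaling over all gene probes, which moved the median difference of named genes from -0.09 to 0.12, and 276 and 489 with normexp.

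With the replicate number as a block, 0 paralog probes passed with age in control cells. Pathway genes past the threshold numbered 1 at P6, 4 with age in control and 0 in Kir2.1 cells. Over all probes the block left 0 at P3, 189 at P6, and 345 and 59 with age in control and Kir2.1 cells.

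Deviations from group means gave r of -0.349 for Crmp1 and Dpysl2, -0.0664 for Crmp1 and Dpysl5, 0.362 for Dpysl2 and Dpysl5, 0.283 for Dpysl3 and Dpysl5, 0.321 for Dpysl3 and Igfbp5, 0.342 for Dpysl3 and Slc24a3 and -0.028 for Dpysl3 and Cd200. The dim Dpysl3 probe was near background, which limits what it can show.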

Other observations

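Some genes outside the family followed Dpysl2 closely over the 16 pools. Among 6455 bright named genes the 3 most like it were Slc1a4, a neutral amino acid transporter (Pearson r 0.928), Lmo4, a LIM domain transcriptional regulator (0.879), and Tuba1a, the alpha tubulin from the list of CRMP binding partners (0.872). These were chosen after their values were seen, and pools share slide and group. With deviations from group means r was 0.816, 0.79 and 0.589.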
